A study of Mus musculus with 2 samples.

Results

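The mature lymphocytes of the injured carotid artery are the T cells, natural killer (NK) cells and innate lymphocytes among the cells of 2 single-cell libraries. They were chosen by their own counts. A barcode was a member if it had at least 300 genes, at most 15% mitochondrial molecules, at least 2 of 11 lymphocyte genes (Cd3d, Cd3e, Cd3g, Trbc2, Trdc, Nkg7, Ncr1, Gzma, Klre1, Il18rap, Icos), no molecule of Csf1r, Csf3r, Cd79a, Col1a2 or Pecam1, and fewer than 2 of the thymocyte genes Rag1, Dntt, Arpp21, Myb and Ccr9. This gave 58 of 7712 kept barcodes in the EC-Cx43-KO library and 47 of 6739 in the control library, 105 of 14451 in all. The levels of these genes in the members therefore describe the choice and are not findings.

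Both libraries were made from mouse carotid arteries 18 hours after a temporary ligation that injures the endothelium. Both genotypes were homozygous for a floxed connexin 43 gene (Gja1). The EC-Cx43-KO mice also carried an inducible Cre recombinase under the Cdh5 promoter, which acts in endothelial cells, while the control mice lacked Cre. Arteries of 1 genotype were combined into 1 library after a 20-minute digest and red cell lysis, so no difference between the genotypes has a replicate check and no test was made. The labels used here give neither the age nor the number of the mice. The arteries were not perfused, so cells of the blood cannot be told apart from cells of the wall. Lymphocytes are not the cell type in which the Cdh5 promoter is designed to drive Cre.

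T cells recognise antigen through a receptor of paired alpha and beta or gamma and delta chains, which signals through the CD3 proteins. Most T cells of the blood carry CD4 or CD8 and the alpha-beta receptor, whereas gamma-delta T cells are few in blood, live in barrier and connective tissues and, in mice, include cells primed to make interleukin 17 when they meet interleukin 1 and interleukin 23. NK cells have no CD3 receptor and kill through granzymes and perforin. Innate lymphoid cells of group 2 have neither and respond to interleukin 33 through Il1rl1.

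The libraries held 8315 EC-Cx43-KO and 7298 control barcodes with 54392831 and 48862850 UMIs, molecules counted once by their identifier. The members held 211443 and 199828 of them. A member had a median of 3297.5 UMIs in the EC-Cx43-KO library (range 569 to 12766) and 3905 in the control library (530 to 13841). The libraries shared 17 barcode sequences, none of them a member's. A simulated-neighbour search for doublets marked 6.17% of EC-Cx43-KO and 5.39% of control barcodes and no member. Gja1, the targeted gene, had 0 UMIs in the members of both libraries, which allows up to 14.2 CPM in the EC-Cx43-KO and 15 CPM in the control members (3 counts of the total, as for each limit of a count of 0 below); the lymphocytes cannot check the deletion. CPM (a count scaled to a fixed total, 1e+06 UMIs) is taken over the summed cells named. Intervals are exact 95% counting intervals, and they cover counting error only. Both libraries held cells with Xist and cells with Y-linked UMIs, so both pools mixed the sexes. Among the members, 22 of 58 EC-Cx43-KO and 20 of 47 control cells had Xist and no Y-linked UMI.

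The member share of kept barcodes was 0.752% (0.572 to 0.971) in the EC-Cx43-KO library and 0.697% (0.513 to 0.926) in the control library, a log2 ratio of 0.11 with a Katz interval of -0.44 to 0.66. The interval includes no difference. Exactly 2 lymphocyte genes, the fewest allowed, were found in 11 EC-Cx43-KO and 2 control members. Just outside, with 1 lymphocyte gene and no other bar, lay 137 EC-Cx43-KO and 89 control barcodes. Of the barcodes with at least 2 lymphocyte genes, 120 of 190 in the EC-Cx43-KO library and 87 of 139 in the control library had a UMI of an excluded gene. A Pecam1 UMI was found in 88 and 66 of them. Pecam1, an adhesion protein, is abundant on endothelial cells and also present on leukocytes. Barcodes with Pecam1 as their only excluded gene and with no UMI of 6 endothelial markers numbered 52 in the EC-Cx43-KO and 31 in the control library. These cells, called the Pecam1 barcodes below, were examined beside the members because their loss was large. Counting them, the shares were 1.43% (110 barcodes) and 1.16% (78 barcodes). Sets below with the Pecam1 barcodes added contain the members, so their values are not separate observations.

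Markers of other cells were low in the members. The summed level of 12 monocyte and macrophage genes was 298 CPM in EC-Cx43-KO and 470 CPM in control members, against 12647 CPM in the other kept barcodes of the EC-Cx43-KO library. The 8 neutrophil genes summed to 251 and 215 CPM, with Lcn2, Cxcr2 and Mmp8 at 0. The 6 endothelial markers summed to 14.2 and 5.00 CPM, with Kdr, Eng and Tie1 at 0, and the 6 smooth muscle genes to 61.5 and 20.0 CPM. Platelet genes summed to 99.3 CPM in EC-Cx43-KO and 15 CPM in control members, with 4 of 6 at 0. Of 6 thymocyte markers 3, Rag2, Ptcra and Aqp11, were at 0, and the thymocyte sum of 1381 and 1837 CPM came from genes that T cells also use, led by Satb1 with 251 of 292 UMIs in EC-Cx43-KO and 319 of 367 in control members. Free RNA was estimated from 9 such marker lists, which spread widely, from 2.01% to 11.8% of the library profile in EC-Cx43-KO members (median 4.63%) and from 0.73% to 13.1% in control members (median 2.09%). With these medians subtracted, 599 of 4000 genes were at least 1.5-fold higher and 674 lower in EC-Cx43-KO members, against 581 and 637 without. Its part in the values of single genes below was not tested.

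The 3 genes that encode the CD3 chains split the members from the NK receptors Ncr1 and Klre1. Cells with Cd3d, Cd3e or Cd3g and neither NK gene are called T cells, and cells with Ncr1 or Klre1 and no CD3 gene NK cells. Cd3e (ENSMUSG00000032093) lies on chromosome 9 at 44998740 to 45009627 on the minus strand and Ncr1 (ENSMUSG00000062524), the activating receptor NKp46, on chromosome 7 at 4337724 to 4345164 on the plus strand (GRCm38, GENCODE vM21). Another pair of genes belongs to the gamma-delta T cells described further on. Il23r (ENSMUSG00000049093), a receptor chain for interleukin 23, lies on chromosome 6 at 67422932 to 67491855 on the minus strand. Cd163l1 (ENSMUSG00000025461), a scavenger receptor that marks interleukin 17 gamma-delta T cells in mice, lies on chromosome 7 at 140218267 to 140231145 on the plus strand.

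The 250 bases before the RefSeq start of these 4 genes (GRCm38.p6, each read 5′ to 3′ on the gene's strand) are shown because the first pair defines the classes and the second pair marks those gamma-delta T cells. Capitals mark matches to 1 of 4 short motifs on either strand, TGTGGT (RUNX factors), GGAAGT (ETS factors), AGGTGT (T-box factors) and AGGTCA (ROR factors), none of which overlap here.
Cd3e, chr9:45009612-45009861, minus strand: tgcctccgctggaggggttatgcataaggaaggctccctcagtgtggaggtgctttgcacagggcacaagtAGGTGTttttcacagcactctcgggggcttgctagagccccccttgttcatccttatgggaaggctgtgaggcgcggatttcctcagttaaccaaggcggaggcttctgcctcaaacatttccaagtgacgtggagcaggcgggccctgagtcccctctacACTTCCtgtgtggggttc
Ncr1, chr7:4337474-4337723, plus strand: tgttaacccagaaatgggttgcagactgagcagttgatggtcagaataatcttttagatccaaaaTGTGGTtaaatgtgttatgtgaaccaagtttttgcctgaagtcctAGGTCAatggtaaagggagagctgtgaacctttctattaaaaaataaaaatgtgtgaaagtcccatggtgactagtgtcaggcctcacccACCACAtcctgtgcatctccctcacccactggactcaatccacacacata
Il23r, chr6:67491856-67492105, minus strand: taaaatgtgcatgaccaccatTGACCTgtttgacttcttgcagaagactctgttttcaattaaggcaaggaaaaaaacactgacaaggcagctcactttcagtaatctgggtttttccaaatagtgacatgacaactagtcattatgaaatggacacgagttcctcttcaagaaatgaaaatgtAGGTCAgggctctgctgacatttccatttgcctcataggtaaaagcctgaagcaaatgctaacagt
Cd163l1, chr7:140218017-140218266, plus strand: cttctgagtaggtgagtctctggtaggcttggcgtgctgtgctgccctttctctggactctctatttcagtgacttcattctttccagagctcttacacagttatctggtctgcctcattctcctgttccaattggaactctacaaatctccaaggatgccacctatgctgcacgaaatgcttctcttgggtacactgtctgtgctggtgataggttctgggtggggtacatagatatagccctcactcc
Counted from the start site, Cd3e held the ETS letters on the other strand at -18 and the T-box letters at -179. Ncr1 held the RUNX letters at -185 and, on the other strand, at -50, and the ROR letters at -140. Il23r held the ROR letters at -66 and, on the other strand, at -229. Cd163l1 held none of the 4. Of 32851 promoters of the same length, 14.1% held the RUNX letters, 19.7% the ETS, 11.8% the T-box and 14.0% the ROR letters, so a match is common and only describes the sequence.

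T cells were the largest class, 35 of 58 members (60.3%, 46.6 to 73.0) in the EC-Cx43-KO library and 22 of 47 (46.8%, 32.1 to 61.9) in the control library. NK cells numbered 15 in each, 25.9% of EC-Cx43-KO and 31.9% of control members. Cells with both kinds of gene numbered 4 and 8, and cells with neither 4 and 2. As shares of all kept barcodes, T cells made up 0.454% in the EC-Cx43-KO and 0.326% in the control library, a log2 ratio of 0.48 (-0.29 to 1.24), and NK cells 0.195% and 0.223%, a log2 ratio of -0.19 (-1.23 to 0.84). Both intervals include no difference. The Pecam1 barcodes were mostly T cells, 46 of 52 in the EC-Cx43-KO and 26 of 31 in the control library. With them T cells numbered 81 and 48, and NK cells 18 and 18.

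**Figure D1:**
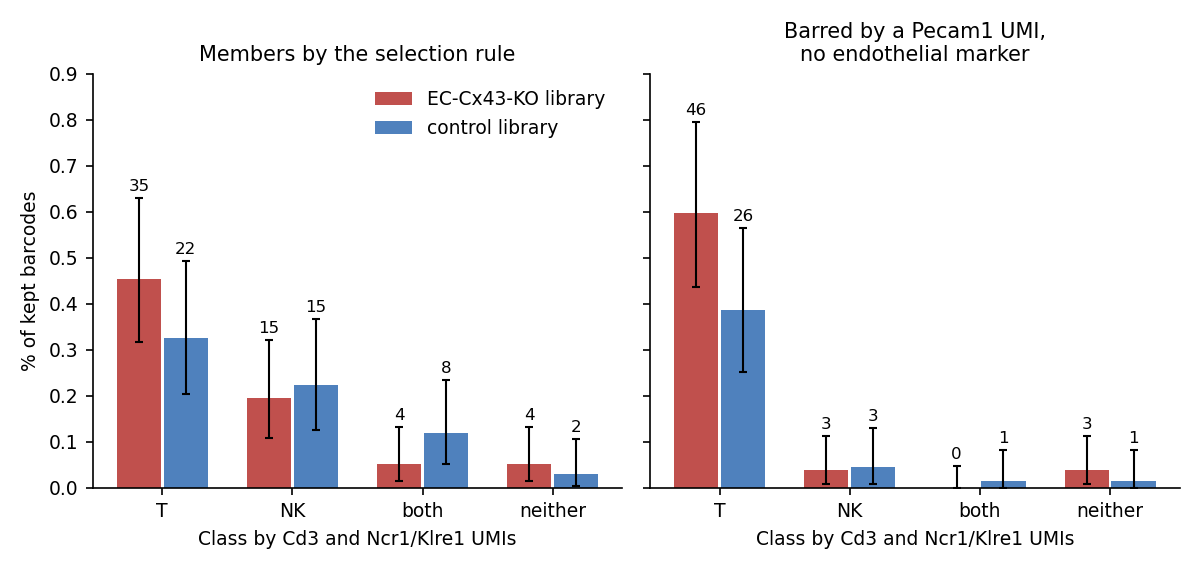
Share of kept barcodes (%, y axis) in each lymphocyte class (x axis) for the EC-Cx43-KO library (red, left) and the control library (blue, right), with exact binomial intervals and the number of barcodes above each bar. The left panel holds the members and the right panel barcodes barred by a Pecam1 UMI that had no endothelial marker. T cells are the largest class in both panels, with 35 and 22 members and 46 and 26 Pecam1 barcodes.

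The T and NK classes carried genes known for each lineage beyond those that chose them. The classes were cut by counts of the same cells, and cells with both kinds of gene were set apart. The values that follow are therefore a description. Themis, a T-cell receptor signalling protein, had 789 CPM in EC-Cx43-KO and 1053 CPM in control T cells and 0 UMIs in NK cells of both libraries. Bcl11b, the transcription factor that sets T-cell identity, had 412 and 418 CPM in T cells against 21.1 and 19.1 CPM in NK cells. Camk4, a calcium-dependent kinase, had 1372 and 1225 CPM in T cells against 106 and 152 CPM in NK cells. Ctla4, an inhibitory receptor, had 313 and 563 CPM in T cells against 21.1 and 19.1 CPM in NK cells. The order was the same in both libraries for each of these genes. Ranking by the smaller ratio of the libraries favours that order, so it is no check. Inpp4b, a lipid phosphatase, led the ranking by the smaller ratio of the libraries, with 910 and 998 CPM in T cells against 21.1 and 0 CPM in NK cells.

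In the opposite direction, Tyrobp, an adaptor of activating NK receptors, had 1310 CPM in EC-Cx43-KO and 1182 CPM in control NK cells against 28.4 and 0 CPM in T cells. Fcer1g, another adaptor, had 1542 and 1658 CPM in NK cells against 49.8 and 0 CPM in T cells. Klrb1c, which encodes NK1.1, had 993 and 1125 CPM in NK cells and 0 UMIs in T cells of both libraries. Prf1, the pore-forming perforin, had 465 and 877 CPM in NK cells against 14.2 and 9.08 CPM in T cells. Each of the 4 was higher in NK cells than in T cells in both libraries, an order that ranking by the smaller ratio favours.

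Among the genes of the rule, Gzma, a granzyme, was the most abundant in NK cells, at 5873 CPM in the EC-Cx43-KO and 5871 CPM in the control library, against 99.5 and 18.2 CPM in T cells. It was found in 9 of 15 EC-Cx43-KO and 15 of 15 control NK cells, and after thinning each cell to 1000 UMIs in 7 of 14 and 13 of 14, with 1 cell of each library too shallow. The share and the level run differently, so no order is read from the share. Among barcodes with a Csf1r or Csf3r UMI, mostly myeloid cells, which should lack Gzma, it was found after thinning in 3 of 3104 in the EC-Cx43-KO (0.0966%) and 2 of 2813 in the control library (0.0711%). Icos, a costimulatory receptor, had 618 and 681 CPM in T cells against 148 and 0 CPM in NK cells. Ccl5, a chemokine stored by effector lymphocytes and not a gene of the rule, had 9232 and 10046 CPM in NK cells and 1372 and 2042 CPM in T cells.

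**Figure D2:**
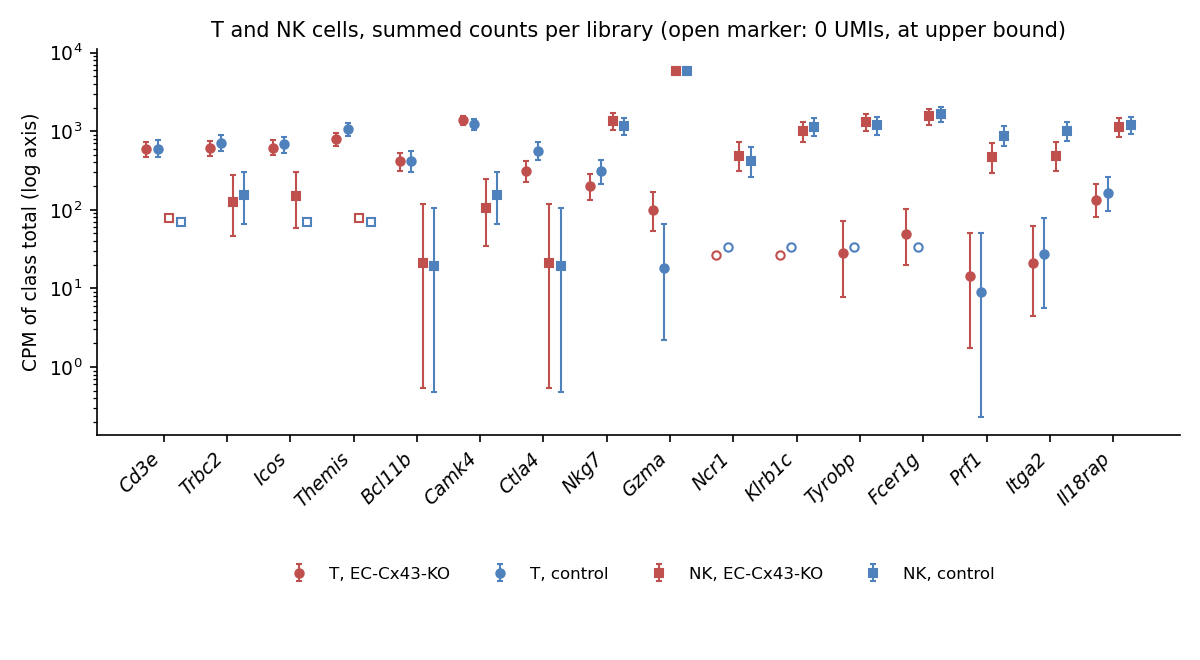
Level of 16 genes (CPM of the class total, log y axis) in T cells (circles) and NK cells (squares) of the EC-Cx43-KO (red) and control (blue) libraries, with exact Poisson intervals. Open markers stand for 0 UMIs and are drawn at the upper bound. The NK genes on the right side, such as Klrb1c and Tyrobp, lie near 1000 CPM in NK cells of both libraries, and the T-cell gene Themis lies at 789 and 1053 CPM in T cells.

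Against all other kept barcodes, the genes that stood out most, apart from those of the rule, were cytotoxic and receptor genes. Gzmb, a granzyme, had 156 CPM in EC-Cx43-KO and 350 CPM in control members against 0.637 and 0.502 CPM in the other barcodes. Ccl5 had 3736 and 5355 CPM in members against 15.3 and 12.3 CPM elsewhere. The members were chosen by genes of the same cells, so these values describe the choice.

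Of the receptor chains counted in T cells, Trbc2 and Trdc are genes of the rule, so their shares describe the choice. Trbc2, the second beta constant chain, was found in 24 of 35 EC-Cx43-KO and 18 of 22 control T cells, and Trac, the alpha constant chain, in 15 and 14. Trdc, the delta constant chain, was found in 6 of 35 EC-Cx43-KO T cells (17.1%, 6.56 to 33.6) and in 0 of 22 control T cells, which allows a share of cells with a UMI, not of cells that express the gene, of up to 13.6%. Tcrg-C1, a gamma constant chain, was found in 8 of 35 and 0 of 22. After thinning, Trdc was found in 5 of 34 and 0 of 21 T cells, and in 1 of 3104 and 2 of 2813 barcodes with a Csf1r or Csf3r UMI (0.0322% and 0.0711%). The median depth of T cells was 3422 UMIs in the EC-Cx43-KO and 4452 UMIs in the control library, and that of the barcodes with a Csf1r or Csf3r UMI 5698 UMIs in both. Trdc was also found in NK cells, 1 of 15 EC-Cx43-KO and 4 of 15 control cells. The T cells with neither Cd4 nor Cd8 numbered 20 of 35 and 7 of 22, those with Cd4 alone 6 and 8, and those with Cd8 alone 8 and 7. Counting the Pecam1 barcodes, cells with neither numbered 38 of 81 in the EC-Cx43-KO and 17 of 48 in the control library. Foxp3, the factor of regulatory T cells, was found in 1 EC-Cx43-KO and 2 control T cells. The T class rested on few UMIs in some cells. An EC-Cx43-KO T cell had 1 UMI each of Cd3e and Il18rap and no receptor constant chain. A control T cell had 1 UMI each of Cd3g and Icos and no such chain. The part of such cells in the T-cell ratios was not tested.

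Within the members, the largest ratios between the libraries among the named genes were those of genes of interleukin 17 gamma-delta T cells. Il23r had 90 UMIs in 9 of 35 EC-Cx43-KO T cells (640 CPM) and 0 UMIs in 22 control T cells. Taking 3 counts for the 0, its log2 ratio was 4.55, and the exact interval began at 4.23. Cd163l1 had 84 UMIs in 7 T cells (597 CPM) against 0 UMIs, a log2 ratio of 4.45 on the same floor, with an interval that began at 4.12. Il1r1, the receptor for interleukin 1, had 156 UMIs in 9 T cells (1109 CPM) against 1 UMI (9.08 CPM), a log2 ratio as counted of 6.93 (4.43 to 12.2). Blk, a kinase of B cells and of these gamma-delta cells, had 38 UMIs in 9 T cells against 0, a log2 ratio of 3.31 on that floor. Trdv4, a delta variable segment, had 28 UMIs in 6 T cells against 0, a log2 ratio of 2.87 on that floor.

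Of these genes all but Il1r1 were then used to pick cells. A barcode with at least 3 of Trdc, Tcrg-C1, Trdv4, Tcrg-V6, Cd163l1, Il23r, Blk and 5830411N06Rik is called a gamma-delta 17 barcode. This set was chosen after the values were seen. The counts of these 8 genes in such barcodes therefore describe the choice. Il1r1, Rora and Il17a were not used in it. There were 10 of 58 in the EC-Cx43-KO members (17.2%, 8.59 to 29.4) and 0 of 47 in the control members, which allows up to 6.38% (3 of 47; the exact upper bound is 7.55%). Of these 10 cells, 9 were T cells by CD3 and 1 had neither class gene. Il23r had 2 to 19 UMIs per cell in all 10 (median 9), Il1r1 2 to 48 in all 10 (median 12), Blk 1 to 12 in all 10 (median 3) and Rora 4 to 22 in all 10 (median 11.5). Cd163l1 had up to 30 UMIs and was found in 8 of 10, and Trdc in 7 of 10 with up to 16 UMIs. Il17a, the cytokine itself, was found in 1 of them, with 14 UMIs. None of the 10 had a UMI of Cd4 or Cd8, 1 had a UMI of Trac, and 7 of 10 had Xist. Tcrg-C1 was found in 7 of 10. A gamma or delta constant chain was not required. A T cell among them with 9 UMIs of Cd163l1 had no UMI of Trdc, Tcrg-C1, Tcrg-C2 or Tcrg-C4. Il1r1 was found in 11 EC-Cx43-KO members, and 10 of the 11 were gamma-delta 17 barcodes.

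The control library also held such cells, outside the members. Over all kept barcodes the numbers were 17 of 7712 in the EC-Cx43-KO library (0.22%) and 8 of 6739 in the control library (0.119%), a log2 ratio of 0.89 with an interval of -0.32 to 2.10, which includes no difference. Of the 8 control barcodes 6 had a Pecam1 UMI, 1 a Csf3r UMI and 1 a Col1a2 UMI, with 1 lacking any excluded gene but having fewer than 2 lymphocyte genes; a barcode can carry more than 1 bar. Of the 7 EC-Cx43-KO barcodes outside the members 3 had a Pecam1 UMI. An endothelial marker was found in 0 of the 7 and 2 of the 8. Il17a was found in 3 of 17 and 2 of 8. Trac was found in 5 of 17 and 2 of 8, and Cd4 or Cd8 in 0 of 17 and 1 of 8.

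With the Pecam1 barcodes added, gamma-delta 17 barcodes numbered 12 of 110 (10.9%, 5.77 to 18.3) in the EC-Cx43-KO and 3 of 78 (3.85%, 0.80 to 10.8) in the control library. In T cells with the Pecam1 barcodes, Il23r had 147 against 31 UMIs, a log2 ratio of 1.63 (1.06 to 2.23). Cd163l1 had 119 against 30 UMIs, a ratio of 1.37 (0.78 to 2.00), and Il1r1 203 against 46 UMIs, a ratio of 1.52 (1.05 to 2.02). This set contains the T cells of the rule, so a shared direction is not a separate observation, and the ratios were smaller. Of the Pecam1 barcodes alone, 2 of 52 in the EC-Cx43-KO and 3 of 31 in the control library were gamma-delta 17 barcodes. The control UMIs of Cd163l1 came from 3 cells and those of Il23r from 4, so these intervals hold only for the counting and not for how many such cells an artery has.

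**Figure D3:**
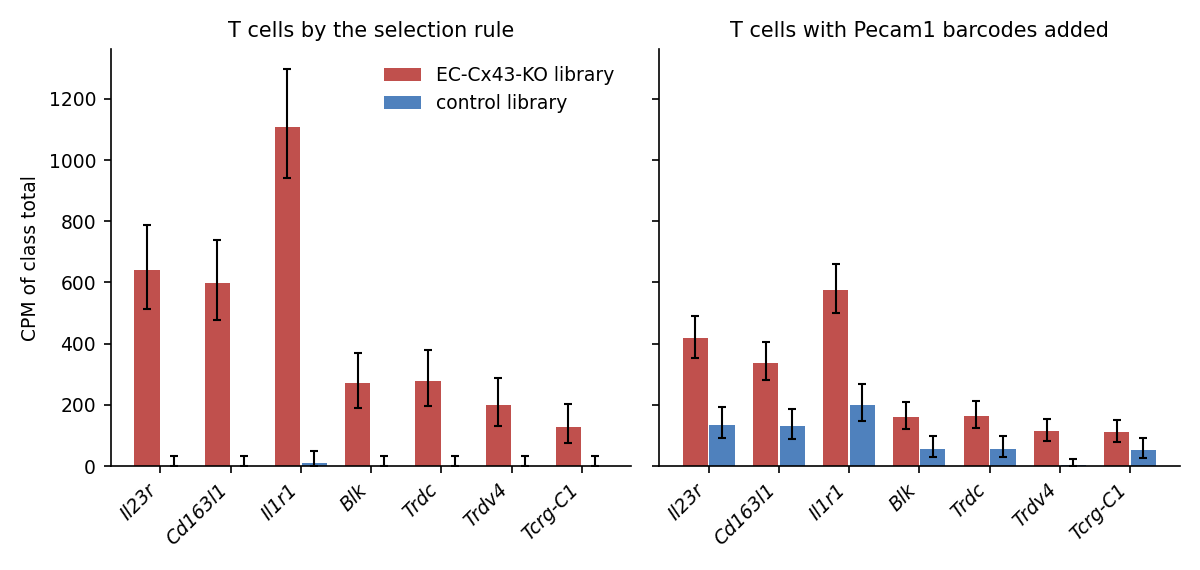
Level of 7 gamma-delta and type 17 genes (CPM of the class total, y axis) in T cells of the EC-Cx43-KO (red, left) and control (blue, right) libraries, with exact Poisson intervals, for the T cells of the selection rule (left panel) and with the Pecam1 barcodes added (right panel). Il1r1 stands at 1109 and 9.08 CPM in the left panel and at 576 and 201 CPM in the right panel.

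Over all members, 4000 genes had at least 20 UMIs in both libraries together. A gene was called higher or lower at 1.5-fold, a log2 ratio of 0.58 in size. Of the 4000, 14.5% were higher and 15.9% lower in EC-Cx43-KO members, with a median log2 ratio of -0.01. In T cells 18.4% of 2569 genes were higher and 18.0% lower, with a median of -0.01. In NK cells 16.1% of 1079 genes were higher and 16.1% lower, with a median of -0.0036. Among members and Pecam1 barcodes together the shares were 10.8% and 15% of 5884 genes in the members, 13.2% and 15.5% of 4757 in T cells and 15.7% and 16.8% of 1669 in NK cells. Without the gamma-delta 17 barcodes they were 13.1% and 16.5% of 3658 genes in the members and 15.6% and 18.5% of 2141 in T cells. Counts of list genes below stand against these shares.

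Of the 17 genes of the gamma-delta and type 17 list, 6 reached 20 UMIs in the members, and all 6 were higher in EC-Cx43-KO members, with a median log2 ratio of 3.42. They passed that limit through the cells in which they are high. Together with the Pecam1 barcodes 6 of 7 were higher (median 1.70). Without the gamma-delta 17 barcodes 1 gene was left and it was not called. Those barcodes were picked mostly by genes of this list, so that drop follows from the choice. Tmem176a, a membrane protein gene that is high in type 17 lymphocytes in mice, had 36 UMIs in 8 EC-Cx43-KO members and 1 UMI in control members.

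The 12 named genes with the highest ratio over all members included several that followed these cells. Igf1r, the receptor for insulin-like growth factor 1, had 106 UMIs in 16 EC-Cx43-KO cells (501.3 CPM) and 11 UMIs in 7 control cells (55.0 CPM), a log2 ratio of 3.19 (2.29 to 4.23). It was 0.87 without the gamma-delta 17 barcodes and 1.32 with the Pecam1 barcodes. Auts2, a chromatin regulator, had 67 against 11 UMIs, a ratio of 2.53, and -0.046 without the gamma-delta 17 barcodes. Atf6, a sensor of protein folding stress, had 76 UMIs in 25 cells against 15 UMIs in 9 cells, a ratio of 2.26 (1.45 to 3.17). It was 1.29 without the gamma-delta 17 barcodes and 1.28 with the Pecam1 barcodes, sets that share cells with the members. Gch1, the first enzyme of tetrahydrobiopterin synthesis, had 46 UMIs in 21 cells against 16 UMIs in 11 cells, a ratio of 1.44 (0.59 to 2.36), with 1.05 and 0.64 in those sets. Nav2 and Syne1 were at 2.38 and 1.43, and at 0.83 and 0.63 without the gamma-delta 17 barcodes. Nr4a3, an early gene of antigen receptor signalling, was at 1.57 in the members and at -0.26 with the Pecam1 barcodes. Abcb1b, a drug efflux pump, was at 1.42 with 57 of its 113 EC-Cx43-KO UMIs in 1 cell, and at -0.11 with the Pecam1 barcodes.

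The lowest ratios included genes of effector lymphocytes. Tbx21 (ENSMUSG00000001444), the T-box factor of interferon-gamma programs, had 12 UMIs in 8 of 58 EC-Cx43-KO members (56.8 CPM) and 45 UMIs in 20 of 47 control members (225 CPM), a log2 ratio of -1.99 (-3.04 to -1.05). It was -2.0 with the Pecam1 barcodes and -1.66 without the gamma-delta 17 barcodes. Klrg1, an inhibitory receptor of mature effector cells, had 13 UMIs in 8 cells against 40 UMIs in 13 cells, a ratio of -1.70 (-2.73 to -0.77), and -1.91 with the Pecam1 barcodes. Itga2, an NK integrin, had 28 UMIs in 13 cells against 73 UMIs in 19 cells, a ratio of -1.46 (-2.15 to -0.82). These 3 genes were picked for their low ratios, and their intervals cover counting in 1 library each. S1pr5, an exit receptor of mature NK and effector cells, had 0 UMIs in EC-Cx43-KO members and 16 UMIs in 8 control members, under the 20 UMIs at which a gene was counted.

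Itga4, the alpha 4 integrin that binds VCAM1 on endothelium, had 99 UMIs in 31 of 58 EC-Cx43-KO members (468 CPM) and 284 UMIs in 39 of 47 control members (1421 CPM), a log2 ratio of -1.60 (-1.95 to -1.27). In T cells it had 41 UMIs in 16 of 35 against 159 UMIs in 17 of 22, a ratio of -2.31 (-2.84 to -1.80). The T-cell ratio was -0.90 (-1.20 to -0.61) with the Pecam1 barcodes, and without the gamma-delta 17 barcodes -1.86. The 3 sets share T cells of the rule, so their ratios are not separate observations. Adding the Pecam1 barcodes raised Itga4 in EC-Cx43-KO T cells from 291 to 497 CPM. In control T cells Itga4 fell from 1443 to 929 CPM. Hipk2, a nuclear kinase, had 8 against 29 UMIs in T cells, a ratio of -2.21 (-3.55 to -1.05). It was -1.62 with the Pecam1 barcodes.

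Single cells carried several of the other low or high values. Of the 31 control UMIs of Cx3cr1, a chemokine receptor, in T cells 28 were in 1 cell, against 1 UMI in EC-Cx43-KO T cells. In control T cells 50 of 90 UMIs of Itgav, 19 of 24 of Mpp7 and 19 of 23 of Irf4 were in 1 cell, against 32, 8 and 8 UMIs in EC-Cx43-KO T cells. Pclaf, a replication gene, had 46 UMIs in 2 EC-Cx43-KO T cells and 1 UMI in control T cells. Arl6ip1 had 40 UMIs in EC-Cx43-KO members and 119 in control members, 58 of them in 1 cell. Gcnt1 had 12 UMIs in EC-Cx43-KO members and 39 in 5 control members, 20 of them in 1 cell, a log2 ratio of -1.78. These ratios describe single cells more than a class. G3bp2, Nebl, Stx8, Apc and Rabep1 were the other low genes of the members, at log2 ratios of -1.91, -1.63, -1.50, -1.49 and -1.47.

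Genes of naive and recirculating T cells were lower in the EC-Cx43-KO T cells of the rule, and fewer of them were lower in the other sets of T cells. Of 9 measured genes 6 were lower and none higher, with a median log2 ratio of -0.72 against -0.01 for all genes. Tcf7, a transcription factor of naive T cells, had 34 UMIs in 19 of 35 EC-Cx43-KO T cells (242 CPM) and 60 UMIs in 14 of 22 control T cells (545 CPM), a ratio of -1.17 (-1.82 to -0.54). S1pr1, the receptor that guides T cells out of tissue, had 33 against 56 UMIs, a ratio of -1.12 (-1.78 to -0.47). Lef1, a partner of Tcf7, had 131 UMIs in 18 cells against 94 UMIs in 12 cells, a ratio of 0.13 (-0.27 to 0.52). Without the gamma-delta 17 barcodes 2 of 9 were lower and 1, Lef1, higher (median -0.34), and with the Pecam1 barcodes 1 of 10, Tcf7, was lower (median -0.27). Lef1 was found in 57 of 81 EC-Cx43-KO and 33 of 48 control T cells when the Pecam1 barcodes were counted.

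**Figure D4:**
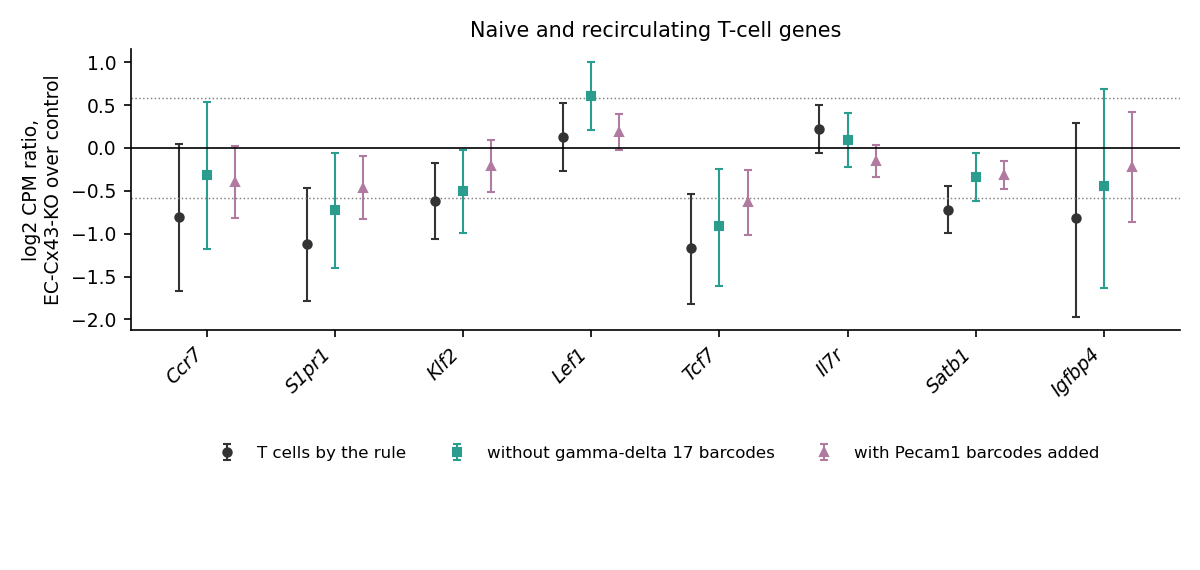
Log2 ratio of EC-Cx43-KO over control (y axis, dotted lines at 1.5-fold) for 8 genes of naive and recirculating T cells in the T cells of the rule (black), without the gamma-delta 17 barcodes (green) and with the Pecam1 barcodes added (purple), with exact 95% intervals. Tcf7 lies below the lower dotted line in all 3 sets, and Lef1 lies above 0 in all 3.

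T-cell receptor and signalling genes gave 0 higher and 4 lower of 18 in T cells (median -0.36), a share of lower genes near the 18.0% of all genes. Without the gamma-delta 17 barcodes 2 of 18, Cd28 and Thy1, were lower (median -0.05), and Trac and Cd4 were at -0.23 and -0.38, under the limit. Cd28, the main costimulatory receptor, had 39 UMIs in 14 of 35 EC-Cx43-KO T cells and 89 UMIs in 19 of 22 control T cells, a log2 ratio of -1.54 (-2.12 to -0.98). It was -0.32 (-0.63 to -0.01) with the Pecam1 barcodes, under the 1.5-fold limit. Thy1, a surface marker of mouse T cells, had 18 UMIs in 10 cells against 36 UMIs in 13 cells, a ratio of -1.35 (-2.26 to -0.50), and -0.84 with the Pecam1 barcodes. Of the activation list 5 of 10 genes were higher and 1 lower in T cells (median 0.50), the higher ones Nr4a1, Nr4a3, Egr1, Cd44 and Cd40lg. In T cells with the Pecam1 barcodes 2 of 11 were higher and 1 lower (median -0.09). Of the UMIs of Egr1 in EC-Cx43-KO T cells 26 of 40 came from 1 cell, and of those of Nr4a3 31 of 73.

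Of 6 tissue residency genes 3, Cxcr6, Itgae and Rgs1, were higher in EC-Cx43-KO T cells (median 0.41). Without the gamma-delta 17 barcodes 1 of 4, Rgs1, was higher (median -0.36), with 41 of its 62 EC-Cx43-KO UMIs in 1 cell, and Cxcr6 had 5 UMIs in each library. Cxcr6, a chemokine receptor of resident T cells, had 25 UMIs in 12 of 35 EC-Cx43-KO and 5 UMIs in 4 of 22 control T cells, a log2 ratio of 1.97 (0.56 to 3.71). It was 1.19 (0.31 to 2.16) with the Pecam1 barcodes, and it was then the only one of 7 called. Klrk1, the activating receptor NKG2D, had 40 UMIs in 12 EC-Cx43-KO and 7 UMIs in 3 control T cells, a ratio of 2.16 (0.99 to 3.57), and 0.74 with the Pecam1 barcodes. Of 7 cytokine genes 5 were higher, yet all 36 UMIs of Il4 and all 20 of Csf2 were in 1 EC-Cx43-KO cell each, and 19 of 20 UMIs of Ifng in 1. Il4 and Csf2 had 0 UMIs in control T cells and Ifng had 7. Interferon response genes gave 1 higher and 2 lower of 10 in the members (median -0.38): Ly6e had 140 against 80 UMIs, a ratio of 0.73 (0.32 to 1.14), and Ifi27l2a 42 against 70 UMIs, a ratio of -0.82 (-1.41 to -0.25). In the other kept barcodes the summed level of the interferon list was 4794 CPM in the EC-Cx43-KO and 2520 CPM in the control library, against 1953 and 2232 CPM in the members.

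Most NK receptor genes were within 1.5-fold between the libraries in NK cells. Of 20 measured receptor and regulator genes 0 were higher and 5 lower in EC-Cx43-KO NK cells, with a median log2 ratio of -0.18. Adding the Pecam1 barcodes, 0 of 20 were higher and 3 lower (median -0.11), where 16.8% of all genes were lower. Klrb1c had 47 UMIs in 12 of 15 EC-Cx43-KO cells and 59 UMIs in 14 of 15 control cells, a ratio of -0.18 (-0.76 to 0.40). Tyrobp had 62 UMIs in each library, a ratio of 0.15 (-0.38 to 0.68), and Eomes, a T-box factor of NK cells, 20 against 22 UMIs, a ratio of 0.01 (-0.94 to 0.95). Ccl5 had 437 against 527 UMIs, a ratio of -0.12 (-0.31 to 0.06). The class was not equally pure. An EC-Cx43-KO NK cell had 4 UMIs of Trac, 3 of Trbc2 and 16 of Il7r, and no UMI of Nkg7, Gzma, Prf1, Tyrobp or Fcer1g. Another EC-Cx43-KO cell with 3 UMIs of Klre1, and one with 1 of Ncr1, also lacked these genes. A control cell with 530 UMIs lacked them except Gzma, with 3 UMIs. The part of such cells in the NK ratios was not tested.

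Tbx21 was lower, with 8 UMIs in 5 of 15 EC-Cx43-KO NK cells (169 CPM) and 31 UMIs in 13 of 15 control NK cells (591 CPM), a log2 ratio of -1.81 (-3.14 to -0.65). With the Pecam1 barcodes it was -1.97. Klra7, a Ly49 receptor of the NK gene complex, had 4 UMIs in 4 EC-Cx43-KO cells and 31 UMIs in 9 control cells, a ratio of -2.81 (-4.77 to -1.31), while Klra8, another Ly49 receptor, had 48 against 44 UMIs, a ratio of 0.27 (-0.35 to 0.90). The Ly49 genes are closely related neighbours whose reads the counting may split, so their single values are uncertain. Itga2 had 23 UMIs in 9 cells against 53 UMIs in 13 cells, a ratio of -1.06 (-1.83 to -0.32). Zeb2, a factor of NK maturation, had 32 against 63 UMIs, a ratio of -0.83 (-1.49 to -0.19), and -0.57 with the Pecam1 barcodes, under the limit.

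Of 7 cytotoxic granule genes 3, Prf1, Gzmb and Cma1, were lower in EC-Cx43-KO NK cells (median -0.14). Cma1 was also on the list of mast cell markers. Adding the Pecam1 barcodes, 2 of 8, Prf1 and Cma1, were lower and 1, Ctsw, was higher (median -0.28). Prf1 had 22 UMIs in 8 of 15 EC-Cx43-KO and 46 UMIs in 13 of 15 control cells, a log2 ratio of -0.92 (-1.72 to -0.15), and -0.80 with the Pecam1 barcodes. Gzmb had 25 UMIs in 8 cells against 50 UMIs in 12 cells, a ratio of -0.85 (-1.61 to -0.13), and -0.43 with the Pecam1 barcodes. Ifng had 1 UMI in EC-Cx43-KO NK cells and 13 UMIs in 5 control NK cells, a ratio as counted of -3.55 (-8.96 to -0.82). The sexes were mixed unevenly in this class, with 9 of 15 EC-Cx43-KO and 3 of 15 control NK cells having Xist and no Y-linked UMI. Within cells with Xist alone the ratio of Tbx21 was -2.64 and within cells with Y-linked UMIs alone -1.34, while Klra7 was at -1.11 and -0.75. These splits rest on few cells and have no interval, and a count under 3 was taken as 3. With 4 EC-Cx43-KO UMIs of Klra7 in all, at least 1 of its split values took that floor, which pulls the ratio toward no difference. The part of sex was not tested.

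**Figure D5:**
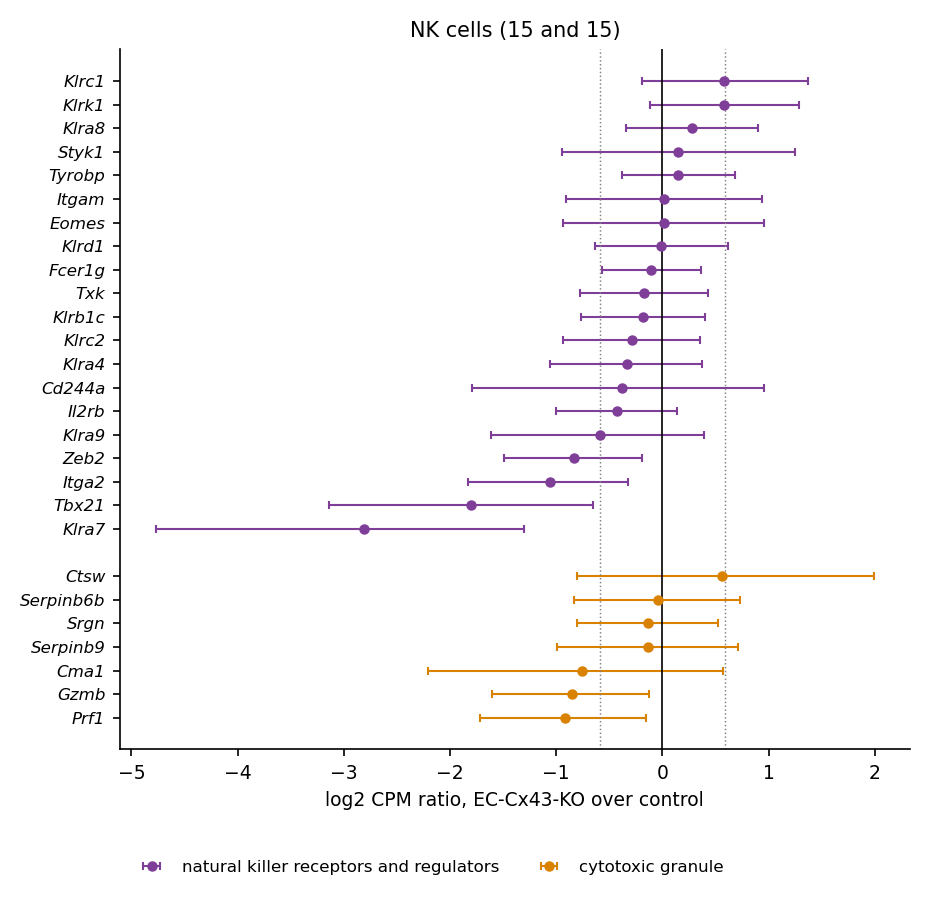
Log2 ratio of EC-Cx43-KO over control (x axis, dotted lines at 1.5-fold) for NK receptor and regulator genes (purple, upper) and cytotoxic granule genes (orange, lower) in the 15 EC-Cx43-KO and 15 control NK cells, with exact 95% intervals. Most genes lie between the dotted lines, with Klra7 at -2.81 and Tbx21 at -1.81 to the left.

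Other named genes also had large ratios in NK cells. Lyn, a Src-family kinase, had 69 UMIs in 10 of 15 EC-Cx43-KO NK cells (1458 CPM) and 27 UMIs in 9 of 15 control NK cells (515 CPM), a log2 ratio of 1.5 (0.84 to 2.20). Within cells with Xist alone it was 0.37 and within cells with Y-linked UMIs alone 2.08. Foxo1, a factor of lymphocyte quiescence, had 31 UMIs in 6 cells against 9 UMIs in 5 cells, a ratio of 1.93 (0.83 to 3.19), and 0.28 and 2.40 within those cells. The split values of both genes rest on few cells, have no interval and take 3 for a count under 3. Rptor, a subunit of the mTORC1 kinase, had 5 UMIs in 3 cells against 31 UMIs in 10 cells, a ratio of -2.48 (-4.20 to -1.11), with 14 of the 31 control UMIs in 1 cell. Rapgef6, Hnrnpc and Irak2 were at 1.62, 1.61 and 1.47, and March7, Arpc2 and Arl6ip1 at -1.57, -1.38 and -1.38.

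The cells with both CD3 and NK genes numbered 4 in the EC-Cx43-KO and 8 in the control library. A Cd8 gene without Cd4 was found in 2 of 4 and 6 of 8. They had Ccl5 at 8394 CPM in the EC-Cx43-KO and 11078 CPM in the control library and Gzma at 2590 and 3271 CPM. Tyrobp had 0 UMIs in both, unlike the NK cells above. Other NK genes were found in some of these cells. Klrb1c was found in cells of both libraries, with up to 3 UMIs per cell. Fcer1g had 3 UMIs in an EC-Cx43-KO cell and 6 in a control cell. Cx3cr1 was found in 1 of 4 and 7 of 8 of the cells with both CD3 and NK genes. Zeb2 was found in 3 of 4 (4 UMIs) and 7 of 8 (53 UMIs). Klrg1 had 1 UMI in 1 of 4 and 11 UMIs in 5 of 8. The control library's larger number of these cells stands beside the lower Tbx21, Klrg1 and Cx3cr1 of the EC-Cx43-KO members, and its part in those ratios was not tested.

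The cells with neither class gene included candidates for innate lymphocytes. One of the 4 EC-Cx43-KO cells had 21 UMIs of Il1rl1, 118 of Rora and 15 of Il7r. One of the 2 control cells had 25 UMIs of Il1rl1, 46 of Rora, 18 of Gata3 and 13 of Il7r. The EC-Cx43-KO cell had no UMI of Gata3, a factor of group 2 innate lymphoid cells, and 2 UMIs of Trbc2, while the control cell had 1 UMI each of Trbc2 and Tcrg-C4, which are T-cell receptor genes. Both carry the interleukin 33 receptor, and neither is named further. Il5, a cytokine of these cells, had 0 UMIs in EC-Cx43-KO members and 33 UMIs in 1 control cell. Of 8 measured genes of the group 2 list 0 were higher and 7 lower in EC-Cx43-KO members (median -0.94). For 4 of the 8 most UMIs of the higher library were in 1 cell, so those 4 describe single cells. Klrg1 was spread more widely, with 40 control UMIs in 13 cells and at most 6 in 1 cell. One further EC-Cx43-KO cell with neither class gene was the gamma-delta 17 barcode with 6 UMIs of Cd163l1.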

How the data were processed

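Single-cell RNA of injured mouse carotid arteries was measured in 1 library per genotype. The authors deposited UMI counts for each gene in each barcode, made with Cell Ranger 8.0.1 per the submitters' processing notes, which also name STAR and the mm10 build. Per the deposited tables, every barcode had at least 501 UMIs and the tables have 32285 genes in common; 40 identifiers with a duplicated symbol were not merged.

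A barcode was kept if it had 300 genes or more and no more than 15% mitochondrial UMIs. The members were chosen by the rule given above, and counts were summed per class and library as CPM. Ratios are EC-Cx43-KO over control. A gene under 3 UMIs in a library took 3 there. Poisson, conditional binomial and Clopper-Pearson intervals are exact, and share ratios have Katz intervals, all at 95%. Genes with at least 20 UMIs over both libraries were counted. Shares of cells were also taken after thinning to 1000 UMIs. Doublets were ranked by simulated neighbours at 0.008 per 1000 cells and not removed.

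The named genes are the 12 highest and 12 lowest ratios in members (at least 50 UMIs, detected in 10% of members of the library with more, at least as abundant as in other cells), the 6 highest and 6 lowest in T and in NK cells (at least 30 UMIs), the largest T against NK and member ratios, and list genes. Mitochondrial, ribosomal, haemoglobin, immunoglobulin, receptor variable and sex-linked genes were left out of the rankings. The members and the lists were chosen with earlier results of these data known. The gamma-delta 17 set, the Pecam1 barcodes, Tmem176a, Il17a in single cells, the background shares in barcodes with a Csf1r or Csf3r UMI, the genes given for cells of both or neither class and the split by Xist beside NK genes were chosen after the values were seen. With 1 library per group no test was made. The ratio steps were tested on simulated data. Positions come from GENCODE vM21 and promoters from RefSeq (GRCm38.p6). Tools were pandas 2.3.3, SciPy 1.17.1, NumPy 2.4.6, matplotlib 3.10.9 and scikit-learn 1.9.0 in Python 3.11.15. A few genes that the naming rule selects are not reported here.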

Additional observations from a re-analysis of the deposited data

Results flagged for a closer look

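A group of 3 genes had log2 ratios of EC-Cx43-KO over control that ran in opposite directions in T and NK cells. The difference between the classes was not tested. Lyn was at -0.91 in T cells, with 19 UMIs in 7 EC-Cx43-KO and 28 UMIs in 4 control cells, and at 1.5 in NK cells. Cx3cr1 was at -3.72 in T cells, where the EC-Cx43-KO count of 1 was taken as 3, and at -5.31 as counted, while in NK cells it was at 1.06, with 15 UMIs in 6 EC-Cx43-KO and 8 UMIs in 6 control cells. Of its 31 control T-cell UMIs 28 were in 1 cell. Rptor was at 0.59 in T cells, with 23 UMIs in 14 EC-Cx43-KO and 12 UMIs in 10 control cells, and at -2.48 in NK cells. The interval of the T-cell value of Rptor (-0.48 to 1.73) and that of the NK value of Cx3cr1 (-0.27 to 2.50) include 0.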

How the results depend on the processing

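No paired analysis was possible because each group had 1 library. The choice of excluded genes moved the shares most. With no excluded genes the members made up 2.01% of EC-Cx43-KO barcodes (155) and 1.69% of control barcodes (114), the T share of control members was 63.2%, control gamma-delta 17 barcodes numbered 7, and 1083 genes were higher and 1169 lower of 8097. With the Pecam1 barcodes, added after seeing the data, the members made up 1.43% and 1.16%, the T share of EC-Cx43-KO members was 73.6% and control gamma-delta 17 barcodes numbered 3. Over all kept barcodes they numbered 17 in the EC-Cx43-KO and 8 in the control library. At a minimum of 50 UMIs 168 genes were higher and 169 lower of 1762, and at 3 UMIs 1636 and 1575 of 9570; these alternatives change the number of genes counted. The other 66 values of shares and counts under alternatives moved by less than their interval or 1.5 times.

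Ratios that changed sign were those of Nr4a3 in members (-0.14 in cells with Xist alone, -0.26 with the Pecam1 barcodes), Arl6ip1 in members (0.36, Xist alone), Abcb1b in members (-0.11, Pecam1 barcodes), Auts2 in members (-0.046, without the gamma-delta 17 barcodes), and Rapgef6 in NK cells (-0.11, Xist alone). In T cells with Xist alone Itgav, Cx3cr1 and Mpp7 were each at 0.19, with both libraries at or under 3 counts, and in T cells with Y-linked UMIs alone Itgav was at 1.48. The regulatory T list median was 0.97 in members and 0.32 in T cells with Y-linked UMIs alone, and 0.30 in T cells with the Pecam1 barcodes, and the checkpoint list median was -0.35 in NK cells with Xist alone. Apart from the alternatives themselves, the cause was not tested. No member was a predicted doublet, so removing doublets changes no ratio, and scaling by the median of ratios only moves all genes of the members alike, to a median of 0.003 against -0.01. The mean of single-cell CPM reversed none of the 48 named ratios and moved 6 of them past their interval. With 15 NK cells per library, Eomes at 20 and 22 UMIs has an interval of -0.94 to 0.95, so differences within it were not detectable at this depth.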

Other observations

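Cells with at least 2 lymphocyte genes and at least 2 thymocyte genes, barred from the members, numbered 12 in the EC-Cx43-KO and 5 in the control library, 0.156% and 0.0742% of kept barcodes, a log2 ratio of 1.07 with an interval of -0.44 to 2.57. B cells numbered 50 and 31, a log2 ratio of 0.50 with an interval of -0.15 to 1.14. Both intervals include no difference.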
